A study of Homo sapiens with 4 samples.

Results

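Messages of 9 genes of innate nucleic acid sensing and of the interferon response were followed in the human cell line NCC-IT-A3, a tumour line of embryonal carcinoma, whose cells resemble those of the early embryo, among 27685 gene IDs measured. The rule lists the genes by name: the sensors and adaptor CGAS, STING1, RIGI and IFIH1, and the interferon-stimulated genes ISG15, IFI6, BST2, IFITM1 and IFITM3. All 9 were found by gene ID. Cells growing in RPMI medium with serum received 100 nM barasertib, which blocks the mitotic kinase Aurora B, or DMSO, and were taken after 4 days. Each group held 2 libraries of polyadenylated RNA, but separate cultures are not stated in the labels, so that p-values here cover only the spread between these samples, and this spread may be technical.

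The pathway is known to run as follows. cGAS (from CGAS) binds DNA in the cytosol and makes a cyclic dinucleotide that activates the adaptor STING (from STING1), while RIG-I (from RIGI) and MDA5 (from IFIH1) bind double-stranded RNA and signal through MAVS. Both arms lead to interferon, whose receptor activates transcription factors that bind the interferon-stimulated response element. Aurora B guides chromosome segregation, and DNA in micronuclei is a known ligand of cGAS. Pluripotent cells are known to make little interferon and to express some interferon-stimulated genes, IFITM genes among them, without it.

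Values are TPM, a transcript abundance scaled by transcript length within a library that sums to 1000000. Each library rested on 4.52 to 4.59 Gb (barasertib) or 4.22 to 4.43 Gb (DMSO) of aligned bases, taken from the ratio of the deposited coverage to FPKM, and the files hold no read counts. The test was limma on log2(TPM + 1) over the 13938 genes that averaged 1 TPM or more, two-sided, with p-values adjusted over all of them (Benjamini-Hochberg) and called at 0.05. In the same comparison 22.0% of the tested genes rose (3071) and 7.44% fell (1037), and the median log2 change was 0.11. Median-of-ratios scaling moved that median by -0.12 and gave 1534 rises and 1891 falls, and quantile normalisation moved it by -0.12 and gave 1649 and 1590. The cells matched their label: all 10 embryonal carcinoma markers, POU5F1, SOX2 and NANOG among them, stood above 1 TPM in every library. Of 12 leukocyte markers, 6 (PTPRC, CD3E, CD3D, MS4A1, NKG7 and TYROBP) were listed at 0 throughout, and the list summed to 3.86 to 4.41 TPM with barasertib and 0.804 to 1.16 TPM with DMSO. Only 1 of the 12 passed the filter, and it rose (log2 change 1.01), a call lost after quantile normalisation. That gene was also not called without DMSO replicate 1 or without either barasertib library. The highest value of any leukocyte marker in any library was 3.01 TPM. Of 10 fibroblast and endothelial markers none was at 0 in all libraries, and the list summed to 3.53 to 3.96 TPM with barasertib and 1.89 to 2.47 TPM with DMSO. What these low marker levels come from was not tested. In bulk RNA, fewer cells that express a gene and less RNA per cell cannot be told apart.

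Promoters of 7 of the 9 genes are shown or described from RefSeq (GRCh38.p14), since the interferon response motif is what the interferon-stimulated members share outside their RNA levels. The motif searched was GAAA followed, after any 2 bases, by a second GAAA (GAAA-NN-GAAA, the core of that element), on both strands, in the 300 bases from 250 before to 50 after the annotated start. It was matched in 6 of the 7 promoters, against 3.57% of all 35116 promoters of the same length and 60.4% of the 53 promoters found for a list of other interferon-stimulated genes. The stretches below run 5′ to 3′ on the gene strand from 170 bases before to 4 bases after the start, with the matches in capitals. ISG15 lies at chr1:1013327-1013500 (plus strand), IFI6 at chr1:27672189-27672362 (minus), BST2 at chr19:17405627-17405800 (minus), IFITM1 at chr11:313870-314043 (plus) and IFITM3 at chr11:320857-321030 (minus).
ISG15: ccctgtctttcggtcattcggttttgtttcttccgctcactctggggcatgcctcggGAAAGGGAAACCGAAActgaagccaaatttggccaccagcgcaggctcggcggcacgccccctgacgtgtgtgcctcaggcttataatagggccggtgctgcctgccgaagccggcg
IFI6: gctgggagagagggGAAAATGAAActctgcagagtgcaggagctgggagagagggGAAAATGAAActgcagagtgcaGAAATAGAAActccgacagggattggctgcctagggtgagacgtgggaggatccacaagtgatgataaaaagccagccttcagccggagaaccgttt
BST2: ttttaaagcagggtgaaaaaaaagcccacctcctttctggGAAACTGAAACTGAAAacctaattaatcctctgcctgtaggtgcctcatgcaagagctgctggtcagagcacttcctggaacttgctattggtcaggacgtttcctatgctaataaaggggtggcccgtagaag
IFITM1: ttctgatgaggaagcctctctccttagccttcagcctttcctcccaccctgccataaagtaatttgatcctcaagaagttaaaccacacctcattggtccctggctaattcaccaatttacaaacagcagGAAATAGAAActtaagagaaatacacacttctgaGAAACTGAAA
IFITM3: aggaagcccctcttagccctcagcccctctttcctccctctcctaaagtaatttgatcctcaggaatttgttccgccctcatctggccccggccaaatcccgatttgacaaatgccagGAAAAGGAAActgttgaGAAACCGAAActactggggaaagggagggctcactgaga
The promoters of ISG15 and BST2 each held 2 matches that overlap each other, the first beginning 113 bases (ISG15) and 130 bases (BST2) before the start. IFI6 held 3 separate matches, from 156, 115 and 93 bases before the start. The 2 matches of IFITM1 began 40 and 6 bases before the start, and those of IFITM3 began 52 and 35 bases before it, so both lay nearer the start than in the other 3 genes. The promoter of IFIH1 held 3 matches, an overlapping pair on the opposite strand and 1 that began 21 bases before the start. That of RIGI held none, which says only that these letters are not in this window. A match describes the sequence and shows no binding.

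**Figure D1:**
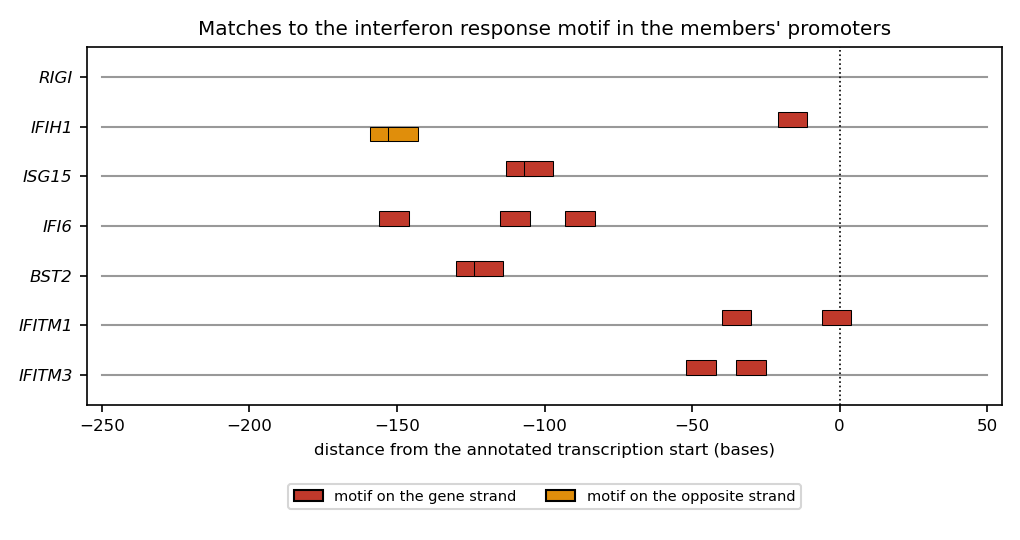
Positions of matches to the interferon response motif in 7 promoters, by distance in bases from the annotated start (dotted line); boxes above a line are on the gene strand and boxes below it on the opposite strand. The matches of IFITM1 and IFITM3 begin within 52 bases of the start, those of ISG15, IFI6 and BST2 at 93 bases or more before it.

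Of the 9 genes, 6 passed the filter on low values. Of these, 4 rose (ISG15, IFI6, RIGI and BST2), against 22.0% of all tested genes, and 2 fell (IFITM3 and IFITM1), against 7.44%. The counts were 2 and 2 after median-of-ratios scaling, and 2 and 1 after quantile normalisation. Under all 3 scalings (TPM, median-of-ratios and quantile) only ISG15 and IFI6 rose, against 10.0% of all tested genes, and only IFITM3 fell, against 7.05%. ISG15 and IFI6 also passed a 2-fold threshold, and 2.09% of all tested genes rose that far. Neither gene that fell passed it, and 0.624% of all tested genes fell that far. The groups overlapped in none of the 6 genes, and barasertib was the higher one without overlap in 49.1% and the lower one in 19.7% of all tested genes. CGAS, STING1 and IFIH1 lay under 1 TPM in every library.

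**Figure D2:**
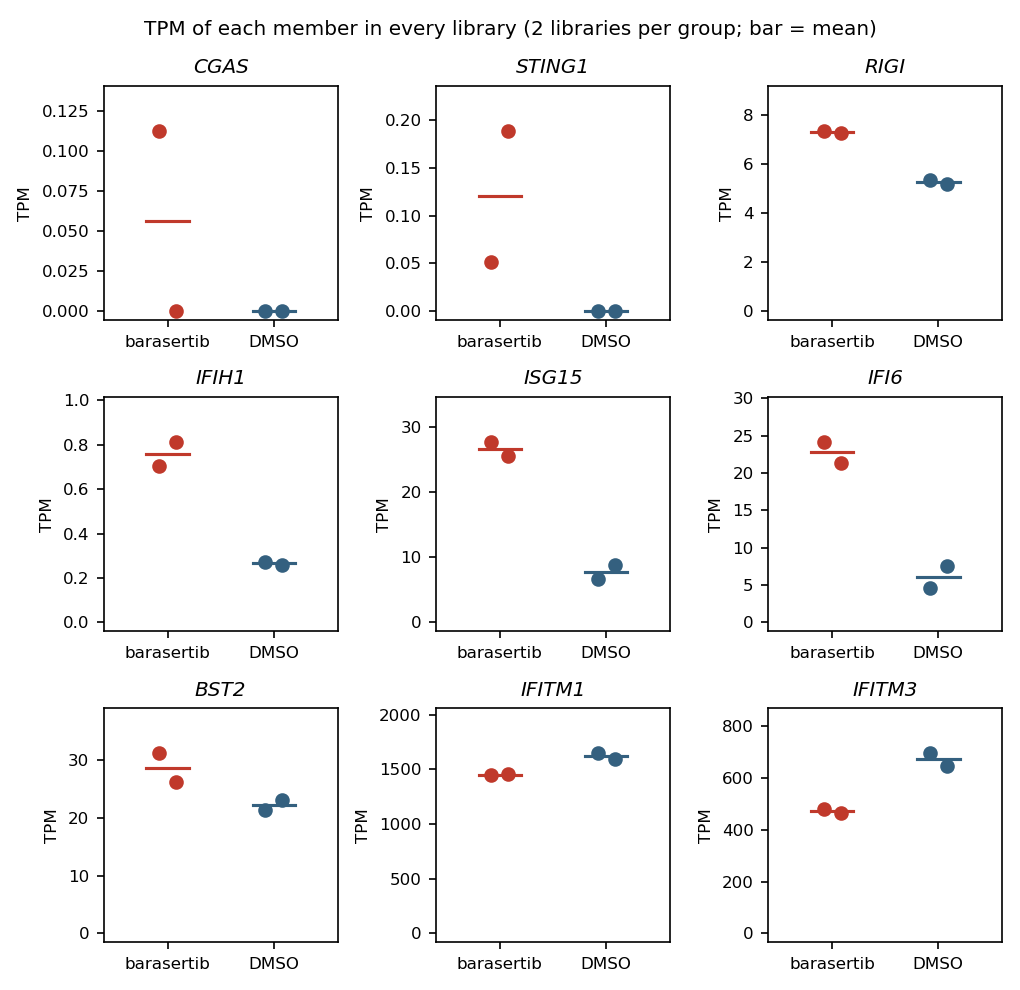
TPM of the 9 genes in each library (points), with barasertib left of DMSO, the mean as a bar, and a separate linear axis from 0 for each gene. ISG15 and IFI6 stand at 21.4 to 27.7 TPM with barasertib and at 4.65 to 8.74 TPM with DMSO, and IFITM1 and IFITM3 stand lower with barasertib.

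ISG15 encodes a ubiquitin-like protein that is coupled to other proteins during an interferon response. The gene (ID 9636) spans 948847 to 949919 of chromosome 1 in hg19, the build of the files, on the plus strand. It was at 27.7 and 25.6 TPM in the barasertib libraries and at 6.69 and 8.74 TPM in the DMSO libraries. The 2 barasertib libraries lay close together and well above both DMSO libraries. Its log2 change was 1.67 ± 0.13 (SE, n = 2 per group), or 3.19-fold (95% interval 1.36 to 1.98 in log2, limma adjusted p = 0.000818). The mean read depth over the gene was 55.1 and 49.7 with barasertib and 12.4 and 17.0 with DMSO. By size of rise it stood at place 46 of 13938.

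IFI6, a small membrane protein gene induced by interferon and known to limit virus replication and apoptosis, rose as well (gene ID 2537, hg19 chromosome 1, 27992572 to 27998724, minus strand). It was at 24.2 and 21.4 TPM with barasertib and at 4.65 and 7.57 TPM with DMSO. The DMSO libraries differed from each other by more than those of ISG15 did, but neither came near the barasertib libraries. The log2 change was 1.77 ± 0.20 (SE, n = 2 per group), or 3.41-fold (95% interval 1.29 to 2.25, limma adjusted p = 0.00231), at place 35 by size of rise. The ISG15 and IFI6 calls held under each of the 14 alternative settings that give gene values, with log2 changes of 1.32 to 1.84 and of 1.33 to 2.07. The ratio of ISG15 to IFI6 in TPM was 1.15 and 1.19 with barasertib and 1.44 and 1.15 with DMSO, so the groups overlapped in it.

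BST2 encodes tetherin, which holds budding virus particles at the cell surface (gene ID 684, hg19 chromosome 19, 17513748 to 17516457, minus strand). It was at 31.2 and 26.2 TPM with barasertib and at 21.3 and 23.1 TPM with DMSO. The groups did not overlap, but the lower barasertib library was near the higher DMSO library. The log2 change was 0.35 ± 0.10 (SE, n = 2 per group, limma adjusted p = 0.0444). It no longer passed after median-of-ratios scaling (limma adjusted p = 0.165), after quantile normalisation (0.123), with FPKM (0.0612), without the filter (0.0972), without the mean-variance trend (0.0904) and without barasertib replicate 1 (0.151), DMSO replicate 1 (0.137) or DMSO replicate 2 (0.0558).

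IFITM1 and IFITM3 encode interferon-induced membrane proteins that block the fusion of virus with cell membranes, IFITM1 mainly at the cell surface and IFITM3 mainly in endosomes. In the mouse, Ifitm3 is known as a marker of early germ cells. They were the most abundant of the 9 genes, at places 88 and 215 of 13938 by mean TPM, and together made up 95.5% and 95.9% of the summed TPM of the 9 genes with barasertib and 98.4% and 98.0% with DMSO.

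IFITM3 was at 479 and 467 TPM with barasertib and at 696 and 648 TPM with DMSO. Both barasertib libraries lay far below both DMSO libraries. The log2 change was -0.51 ± 0.05 (SE, n = 2 per group), or 0.705-fold (95% interval -0.62 to -0.39, limma adjusted p = 0.00143), and the call held under each of the 14 alternatives, at -0.64 to -0.45. By size of fall it stood at place 414.

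IFITM1 was at 1449.8 and 1453 TPM with barasertib and at 1648 and 1590.3 TPM with DMSO. The groups did not overlap, and the difference was small. The log2 change was -0.16 ± 0.03 (SE, n = 2 per group, limma adjusted p = 0.0178). It was -0.29 after median-of-ratios scaling (limma adjusted p = 0.00277) and -0.0022 after quantile normalisation (limma adjusted p = 0.969). The call was also lost without DMSO replicate 1 (limma adjusted p = 0.0893), without barasertib replicate 1 (0.0736), without barasertib replicate 2 (0.0677), with no filter (0.0631) and with no mean-variance trend (0.139).

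The balance between the pair shifted: the TPM of IFITM3 divided by that of IFITM1 was 0.330 and 0.321 with barasertib and 0.422 and 0.407 with DMSO. In hg19, IFITM1 (gene ID 8519) spans chromosome 11 from 313991 to 315272 and IFITM3 (gene ID 10410) from 319673 to 320914, 4401 bases apart on opposite strands. Their near copy IFITM2, 4581 bases from IFITM1 on the other side, was at 3.01 and 1.58 TPM with barasertib and at 1.89 and 1.57 TPM with DMSO (limma adjusted p = 0.491). The copies share sequence, so reads can be split between them. Of the distinct stretches of 50 bases in the coding transcripts of IFITM1 (GENCODE 29), 30.3% also occur in IFITM2 and 9.46% in IFITM3. Of those of IFITM3, 8.46% occur in IFITM1 and 12.1% in IFITM2. All coding transcripts of a gene were pooled (3 for IFITM1, 5 for IFITM2 and 3 for IFITM3). They need not be the transcripts behind the deposited values, so these shares do not measure how reads were split here. Summed over the 3 copies, which depends little on how reads were split among copies of similar length, the level was 1932 and 1921 TPM with barasertib and 2346 and 2239 TPM with DMSO. Of the more distant family members, IFITM10 was at 2.04 and 2.31 TPM with barasertib and at 1.70 and 1.45 TPM with DMSO (limma adjusted p = 0.205). IFITM5 was at 0.138 and 0.353 TPM with barasertib and at 0 and 0.566 TPM with DMSO.

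Among the sensors, RIGI, which encodes the RNA helicase RIG-I, was the only one above the filter (gene ID 23586, hg19 chromosome 9, 32455300 to 32526322, minus strand). It was at 7.35 and 7.28 TPM with barasertib and at 5.36 and 5.19 TPM with DMSO. The libraries of each group lay close together and the groups did not overlap. The log2 change was 0.41 ± 0.10 (SE, n = 2 per group, limma adjusted p = 0.0289). It no longer passed after median-of-ratios scaling (limma adjusted p = 0.0832), after quantile normalisation (0.133), without the filter (0.0671) and with any 1 of the 4 libraries left out (0.0823 to 0.102).

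IFIH1, which encodes MDA5, a sensor of long double-stranded RNA, was at 0.704 and 0.812 TPM with barasertib and at 0.272 and 0.260 TPM with DMSO. The groups did not overlap, at a mean read depth of 1.40 and 1.58 with barasertib and of 0.504 and 0.504 with DMSO. It was not among the tested genes (gene ID 64135, hg19 chromosome 2, 163123589 to 163175218, minus strand). Without the filter its log2 change was 0.47 (limma adjusted p = 0.0338), in a fit where 11.9% of 20052 genes rose and 3.67% fell.

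CGAS was listed at 0.112 and 0 TPM with barasertib and at 0 TPM in both DMSO libraries. STING1 was listed at 0.0518 and 0.188 TPM with barasertib and at 0 TPM in both DMSO libraries. At mean read depths of at most 0.224 (CGAS) and 0.366 (STING1), a difference between the groups was not detectable. No fold is given for either gene (CGAS, ID 115004, hg19 chromosome 6, 74134856 to 74162043, and STING1, ID 340061, chromosome 5, 138855113 to 138862375, both on the minus strand). Without the filter, the adjusted p of limma was 0.536 for CGAS and 0.260 for STING1.

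Ordered by level in TPM, the 9 genes ran IFITM1, IFITM3, BST2, ISG15, IFI6, RIGI, IFIH1, STING1 and CGAS with barasertib, where BST2 and ISG15 overlapped and so did STING1 and CGAS. With DMSO the order down to IFIH1 was the same, and there ISG15 overlapped IFI6, IFI6 overlapped RIGI, and CGAS and STING1 were both listed at 0. Summed without the IFITM pair, the other 7 genes came to 91.3 and 81.4 TPM with barasertib and to 38.2 and 44.8 TPM with DMSO.

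**Figure D3:**
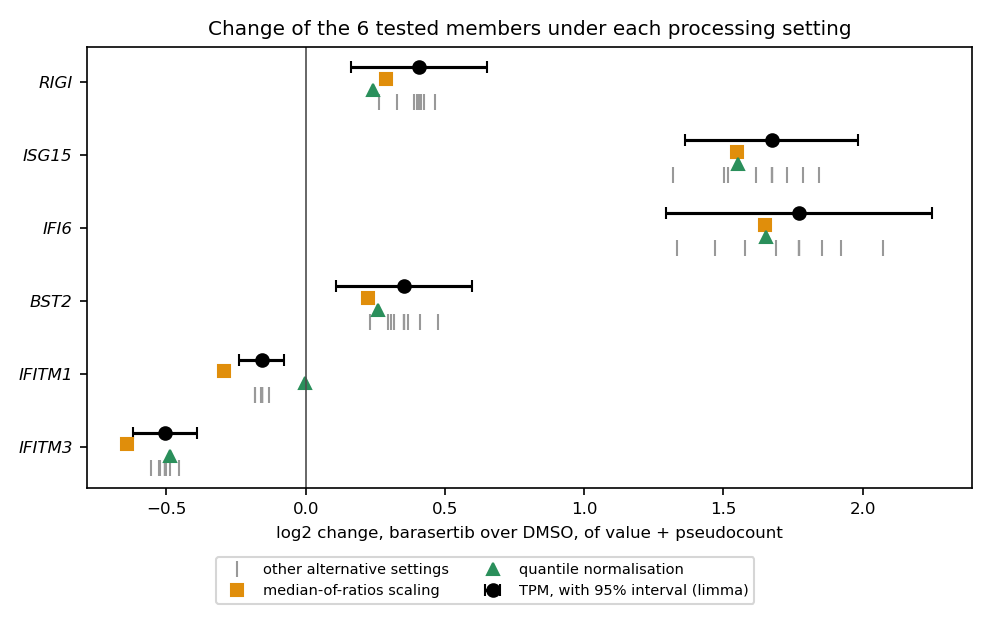
Log2 change (barasertib over DMSO) of the 6 tested genes: circles with 95% intervals are the limma fit on log2(TPM + 1), squares and triangles the other 2 scalings, and grey ticks the remaining alternative settings. ISG15 and IFI6 stay between 1.32 and 2.07 and IFITM3 between -0.64 and -0.45, while IFITM1 lies at -0.0022 after quantile normalisation.

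The other genes of the pathway were described from 4 lists of 177 genes in all, of which 118 were tested. Of these, 29 rose and 6 fell (24.6% and 5.08%, against 22.0% and 7.44% of all tested genes). Under all 3 scalings 16 rose and 6 fell, where 10.0% of all tested genes rose and 7.05% fell. Their median log2 change was 0.14, against 0.11 over all tested genes. With 1 library left out, 16 to 22 rose and 2 to 4 fell, the fewest rises without barasertib replicate 2 (16) and barasertib replicate 1 (17). After median-of-ratios scaling 19 rose and 15 fell, and after quantile normalisation 17 and 12.

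Of 28 tested genes among 42 other sensors and adaptors, 5 rose and 3 fell, at a median of 0.08. These were 17.9% and 10.7%, against 22.0% and 7.44% of all tested genes. The counts were 4 and 4 after median-of-ratios scaling and 4 and 3 after quantile normalisation. With 1 library left out 4 rose and 1 to 2 fell. MAVS, the adaptor of RIG-I and MDA5, fell, at 17.7 and 19.3 TPM with barasertib and 24.0 and 24.4 TPM with DMSO (log2 change -0.37, limma adjusted p = 0.0166). That call was lost without DMSO replicate 2 (limma adjusted p = 0.0600) and without barasertib replicate 1 (0.0700). TRAF3, an adaptor downstream of MAVS, rose by 0.60 in log2 (limma adjusted p = 0.00624). It was at 10.1 and 10.1 TPM with barasertib and 6.35 and 6.26 TPM with DMSO. ZC3HAV1, an antiviral protein that binds viral RNA, rose by 0.59 (limma adjusted p = 0.00656). SLC19A1 and LRRC8A, whose products can carry the cyclic dinucleotide of cGAS across the cell membrane, rose by 0.56 and 0.37 (limma adjusted p of 0.00684 and 0.00571). TMED2, a cargo receptor of early secretion, fell by 0.47 (limma adjusted p = 0.00189). The kinase gene TBK1 was at 29.1 ± 0.882 TPM with barasertib and 27.6 ± 1.33 TPM with DMSO (SD, n = 2 each; limma adjusted p = 0.440). The factors it activates also did not pass the test: IRF3 was at 95.7 ± 4.52 and 91.3 ± 0.878 TPM with barasertib and DMSO, and IRF7 at 14.5 ± 0.0792 and 13.5 ± 0.467 TPM (limma adjusted p of 0.406 and 0.411).

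All 28 genes that restrain sensing, by degrading nucleic acids or damping the signal, were tested. Of these 9 rose and 2 fell (32.1% and 7.14%, against 22.0% and 7.44% of all tested genes), at a median of 0.08. Under all 3 scalings 4 rose and 2 fell. The counts were 5 and 7 after median-of-ratios scaling and 5 and 6 after quantile normalisation. With 1 library left out 6 to 8 rose and 0 to 2 fell. ENPP1, which degrades the cyclic dinucleotide of cGAS outside cells, was at 81.7 and 81.0 TPM with barasertib and at 41.9 and 36.6 TPM with DMSO (log2 change 1.04, limma adjusted p = 0.000740). RNASEH2B and RNASEH2C, subunits of the nuclease that removes RNA from DNA, rose by 0.86 and 0.43 (limma adjusted p of 0.00122 and 0.00524), and the lamin gene LMNB2 by 0.40 (limma adjusted p = 0.00803). TREX1, the main nuclease of cytosolic DNA, was at 4.13 and 4.56 TPM with barasertib and at 2.23 and 0.277 TPM with DMSO. The DMSO libraries lay far apart from each other. Its log2 change of 1.40 passed in TPM (limma adjusted p = 0.0488) but not without barasertib replicate 1 (0.163) or barasertib replicate 2 (0.190), nor after either other scaling (0.0723 and 0.0881), without the filter (0.124), without the mean-variance trend (0.102), with a pseudocount of 0.1 (0.0801) or with robust moderation (0.149). The call held in 5 of the 13 alternatives that gave a value. The log2 change was 2.06 without DMSO replicate 1 and 0.73 without DMSO replicate 2. With pseudocounts of 0.1 and 5 it was 2.24 and 0.60. SOCS3, a feedback inhibitor of cytokine receptors, was at 2.42 and 2.45 TPM with barasertib and at 1.13 and 0.811 TPM with DMSO. It rose by 0.81 (limma adjusted p = 0.0195), and by 1.26 and 0.32 with pseudocounts of 0.1 and 5. The call was lost after quantile normalisation (limma adjusted p = 0.0574). That call was also lost without DMSO replicate 2 and without either barasertib library.

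Among interferons, their receptors and their signalling, 19 of 37 genes were tested. Of these 3 rose (15.8%, against 22.0% of all tested genes) and none fell (against 7.44%). The other 16 did not pass, and the median was 0.13. With 1 library left out 2 rose, and after either other scaling 2 rose and 1 fell. IFNB1, the first interferon made after sensing, was listed at 0 in all 4 libraries, as were 9 further genes of this list. IFNAR1 and IFNAR2, the receptor of type I interferon, were at 15.7 ± 0.810 and 10.8 ± 0.206 TPM with barasertib and at 16.3 ± 0.241 and 8.99 ± 0.0513 TPM with DMSO (SD, n = 2 each; limma adjusted p of 0.649 and 0.0850). STAT2, a transcription factor of the interferon response, was at 30.4 and 29.1 TPM with barasertib and at 33.4 and 34.1 TPM with DMSO. It did not pass in TPM (log2 change -0.18, limma adjusted p = 0.0849) but did after median-of-ratios scaling (0.0195) and quantile normalisation (0.0309), lower with barasertib in each. IRF9 was at 12.1 and 10.3 TPM with barasertib and at 10.4 and 9.73 TPM with DMSO (limma adjusted p = 0.353). The genes that rose were IFNGR2 and IFNGR1, the receptor of interferon gamma, and the kinase gene JAK1, by 0.70, 0.24 and 0.48 (limma adjusted p of 0.00205, 0.0196 and 0.00461). The IFNGR1 call was lost with any 1 of the 4 libraries left out (limma adjusted p of 0.0542 to 0.0774), under both other scalings (0.190 and 0.0926) and with no mean-variance trend (0.0615).

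Of 70 other interferon-stimulated genes, 43 were tested, and 6 were listed at 0 in all libraries. Of those tested, 12 rose and 1 (NMI, named after its value was seen) fell, at a median of 0.24. These were 27.9% and 2.33%, against 22.0% and 7.44% of all tested genes. Under all 3 scalings 6 rose and 1 fell, with 8 and 3 after median-of-ratios scaling and 6 and 2 after quantile normalisation. The NMI call was lost with any 1 of the 4 libraries left out. With 1 library left out 4 to 8 rose, the fewest without barasertib replicate 2 (4) and barasertib replicate 1 (5), against 7 without DMSO replicate 2 and 8 without DMSO replicate 1. LY6E, a surface protein gene of the LY6 family, was at 67.9 and 62.0 TPM with barasertib and at 34.0 and 37.6 TPM with DMSO (log2 change 0.84, limma adjusted p = 0.00143). UBE2L6, which encodes the conjugating enzyme of ISG15, was at 3.57 and 4.69 TPM with barasertib and at 1.55 and 0.776 TPM with DMSO (log2 change 1.26, limma adjusted p = 0.0107), a call lost without barasertib replicate 2 (0.0760). The UBE2L6 change also depended on the pseudocount, at 1.80 with 0.1 and 0.57 with 5. The rest of the ISG15 enzyme set was looked up after values had been seen. UBA7, the activating enzyme, stayed under the filter at 0.610 and 0.982 TPM with barasertib and 0.363 and 0.356 TPM with DMSO. HERC5, the ligase, was at 17.9 and 20.0 TPM with barasertib and 15.5 and 16.5 TPM with DMSO (limma adjusted p = 0.0919). USP18, which removes ISG15, was at 1.90 and 2.03 TPM with barasertib and 3.19 and 2.21 TPM with DMSO (limma adjusted p = 0.244).

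APOBEC3B, TENT5C, PARP9 and ZNFX1 completed the named genes of that list, with log2 changes of 0.84, 0.76, 0.73 and 0.53 (limma adjusted p of 0.0173, 0.0157, 0.0360 and 0.0183). These genes averaged under 5 TPM, and their changes depended on the pseudocount. In the same order they were 1.26, 1.10, 1.20 and 0.63 with a pseudocount of 0.1. With a pseudocount of 5 they were 0.34, 0.32, 0.27 and 0.31. The PARP9 and ZNFX1 calls were lost with any 1 of the 4 libraries left out (limma adjusted p of 0.0613 to 0.167 and 0.0550 to 0.0869), and the APOBEC3B and TENT5C calls without barasertib replicate 1 (0.0517 and 0.0743) or barasertib replicate 2 (0.0960 and 0.0804). Quantile normalisation ended the calls of APOBEC3B (limma adjusted p = 0.0552), PARP9 (0.114) and ZNFX1 (0.0714), and median-of-ratios scaling that of PARP9 (0.0574). A further 3 genes of the list were picked after their values had been seen. MX1, an antiviral GTPase gene under the filter, was at 0.573 and 0.369 TPM with barasertib and 0.0315 and 0.0304 TPM with DMSO, without overlap. IFIT1 was at 1.67 and 2.12 TPM with barasertib and 0.922 and 1.13 TPM with DMSO (limma adjusted p = 0.0843), and RSAD2 was listed at 0 throughout. Of the promoters in the list, the response motif was matched in 3 of 8 for genes that rose, in that of the 1 gene that fell and in 14 of 24 for tested genes that did not pass, against 2.48% of the promoters of all tested genes, and the difference between these groups was not tested.

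**Figure D4:**
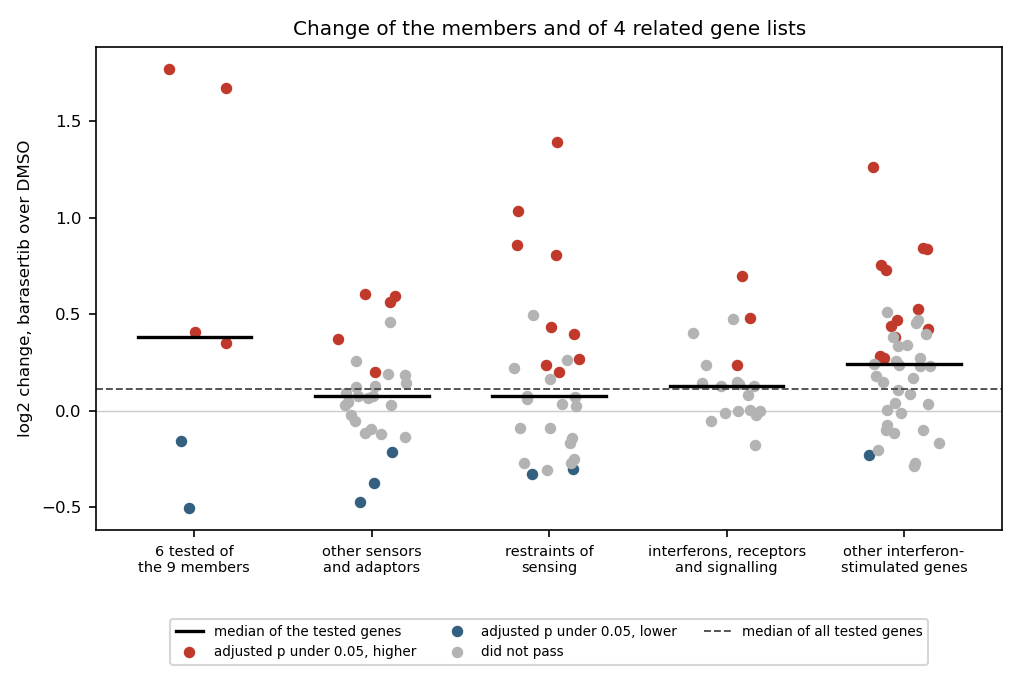
Log2 change (barasertib over DMSO) of the tested genes of each list, each point 1 gene, red where it rose, blue where it fell and grey where it did not pass the limma test; black bars are list medians and the dashed line the median of all tested genes, 0.11. The medians of the 4 related lists lie between 0.08 and 0.24, while ISG15 and IFI6 stand at 1.67 and 1.77.

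No gene of the files overlapped any of the 9 in hg19. The neighbours of ISG15 on both sides rose as well: HES4, a Notch target gene 13295 bases away, was at 12.4 and 9.20 TPM with barasertib and at 4.17 and 3.84 TPM with DMSO (log2 change 1.22, limma adjusted p = 0.00325). AGRN, 5584 bases away on the other side, was at 50.3 and 43.2 TPM with barasertib and at 30.9 and 30.3 TPM with DMSO (log2 change 0.59, limma adjusted p = 0.00543). Both passed under all 3 scalings. The nearest gene of IFI6 with tested levels, FAM76A, did not pass (53766 bases away, limma adjusted p = 0.791). BISPR, a non-coding gene that lies 38 bases from BST2 on the opposite strand, was at 0.609 and 0.550 TPM with barasertib and at 0.709 and 0.662 TPM with DMSO. GCA, 55 bases from IFIH1 on the opposite strand, was at 11.0 and 12.8 TPM with barasertib and at 11.5 and 11.4 TPM with DMSO (limma adjusted p = 0.747). Of the tested neighbours of CGAS, STING1 and RIGI, ACO1 beside RIGI rose (log2 change 0.32, limma adjusted p = 0.0204), a call lost under both other scalings (0.106 and 0.0657) and without barasertib replicate 1 (0.0834), DMSO replicate 1 (0.0694) or DMSO replicate 2 (0.0586). DDX43, MTO1, UBE2D2 and TOPORS did not pass in TPM (limma adjusted p of 0.602, 0.0642, 0.499 and 0.0943). MTO1, beside CGAS, passed as lower with barasertib after median-of-ratios scaling (0.0161) and quantile normalisation (0.0268). B4GALNT4, 48881 bases from IFITM3, rose by 0.69 (limma adjusted p = 0.0109), against the fall of IFITM3.

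ISG15 had the smallest adjusted p of the 9. The 3 tested genes with the most similar pattern to it over the 4 libraries, by Euclidean distance between centred log2 values among 13937 genes, were SENCR, A2M and FILIP1L, at distances of 0.036, 0.076 and 0.168. SENCR, a long non-coding RNA, was at 3.99 and 3.55 TPM with barasertib and at 0.335 and 0.641 TPM with DMSO. A2M, a secreted protease inhibitor, was at 5.59 and 5.54 TPM with barasertib and at 0.870 and 1.34 TPM with DMSO. FILIP1L was at 8.48 and 6.62 TPM with barasertib and at 1.20 and 1.91 TPM with DMSO. With 4 libraries in 2 groups, such likeness reflects little beyond the size of the group difference.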

How the data were processed

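RNA libraries of 4 samples (2 barasertib, 2 DMSO) were prepared from polyadenylated RNA by a stranded method, per the labels' protocols. The submitters' processing notes name HISAT2, StringTie and hg19; the sources used here give no versions or options, nor whether strand entered the summary. Per the file headers, the deposited values are coverage (mean read depth over a gene, a signal not scaled between libraries), FPKM (scaled by transcript length and library) and TPM, and the deposited TPM sum to 1000000 per library.

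TPM and FPKM rows were summed per gene ID (336 to 407 IDs per library stood on several rows), and the largest coverage was kept. RefSeq (GRCh38.p14) gave symbols for 27559 of 27685 IDs and the promoters of 7 of the 9 genes. limma 3.58.1 (R 4.3.3) was fitted to log2(TPM + 1) with 1 term for group and moderation along a mean-variance trend (residual degrees of freedom 2, prior 4.09). Across tested genes the log2 values of a replicate pair differed with an SD of 0.25 in each group. Because 1 is added to each TPM, the fold changes of low genes come out too small.

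The genes and lists were chosen with earlier results of these data known. Named genes are the 9 members, 11 regulators, up to 6 called genes per list with the largest change and non-overlapping groups, locus neighbours and IFITM relatives, and the 3 nearest patterns; the text marks other names as chosen after their values. A gene that this rule names is not reported here. Alternatives were the filter (none, or 5 TPM), pseudocounts of 0.1 and 5, FPKM, median-of-ratios and quantile scaling, no trend, robust moderation, the replicate block, each library left out, and a 2-fold threshold. Python 3.11.15 and matplotlib 3.10.9 made tables and plots.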

Additional observations from a re-analysis of the deposited data

How the results depend on the processing

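Of the 6 tested members, ISG15, IFI6 and IFITM3 kept their direction and call under all 14 alternatives that give gene values. The calls of RIGI, BST2 and IFITM1 held in 7, 6 and 8 of them, and the cause of the losses was not tested. RIGI and BST2 kept their direction throughout, while the change of IFITM1 was almost gone after quantile normalisation (log2 change -0.0022). Members that rose numbered 4 and those that fell 2. They numbered 2 and 1 after quantile normalisation, 2 and 2 after median-of-ratios scaling, 2 and 0 with a 2-fold threshold, and 1 fell without the filter or without the mean-variance trend. Among all tested genes 3071 rose and 1037 fell. This became 1534 and 1891 after median-of-ratios scaling, 1649 and 1590 after quantile normalisation and 292 and 87 with a 2-fold threshold, and 674 fell without the trend. Of the other pathway genes 29 rose and 6 fell, against 19 and 15 after median-of-ratios scaling, 17 and 12 after quantile normalisation, and 3 and 0 with a 2-fold threshold. With 1 library left out, where the lone sample of a group is assumed to vary like the other group, 2 to 3 members rose and 1 to 2 fell, 1365 to 2181 genes rose and 601 to 699 fell, and 16 to 22 other pathway genes rose and 2 to 4 fell. The fewest genes were called without barasertib replicate 1. With the replicate block 4 members rose and 2 fell, and 3218 genes rose and 1080 fell. Same-numbered libraries are not stated to share more than a number. Their deviations correlated at 0.02, which cannot show whether they were handled together. Without the filter, genes listed at 0 in all libraries were still left out. The depth limits CGAS and STING1, at or near 0 throughout, and IFIH1, at a mean read depth under 2.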
